A study of Mus musculus with 211 samples.

Results

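The NADPH oxidase of phagocytes was described here through 5 of its subunit genes, *Cybb*, *Cyba*, *Ncf1*, *Ncf4* and *Rac2*, out of 48709 genes counted. They were chosen by name and found in the count table through their Ensembl identifiers, and all 5 had reads. The cells were 211 single cells from the cochleae of adult CD1 mice that carried the Lfng-EGFP reporter, a transgene in which regulatory sequence of *Lfng* drives EGFP. Mice were P60 or P120 and received no treatment named in the labels, both sexes were used, and cells of pooled mice were sorted for GFP and captured on a microfluidic chip. They came from 8 captures at P60 (9c, 10c, 17c, 19c, 20c, 21c, 31 and 40) and 4 captures at P120 (28, 32, 36 and 38). The capture was the replicate, and nothing in the labels ties a capture to single animals.

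Several facts about the cells bear on every value. The labels call them adult cochlear supporting cells, yet 15 supporting cell genes together took 0.0563% of the reads, against 16.2% for 12 neutrophil genes such as *S100a8*, *S100a9*, *Camp* and *Ngp*. Of the 211 cells, 197 held at least 3 of the neutrophil genes at 10 or more reads each and 9 held at least 3 of the supporting cell genes, of which 7 held both. Cells ranged from 41 to 5361476 gene reads with a median of 736455, and 164 cells reached 50000. All 4 P120 captures and P60 captures 31 and 40 were sequenced in later runs than the other 6 P60 captures. Capture 10c was shallow, with a median of 451 reads, and capture 21c held the most supporting cell reads (15914 counts scaled to 1000000 gene reads, CPM, against at most 391 CPM in the P120 captures).

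The phagocyte oxidase moves electrons from NADPH across a membrane onto oxygen and so makes superoxide, the start of the oxidative burst of neutrophils. *Cybb* encodes gp91phox, the catalytic subunit, and *Cyba* encodes p22phox, its partner in the membrane-bound cytochrome b558. *Ncf1* encodes p47phox, the organizer that brings the cytosolic complex to the membrane, and *Ncf4* encodes p40phox, which binds a phosphoinositide of the phagosome membrane. *Rac2* encodes the small GTPase of blood cells that switches the complex on. The broadly expressed GTPase *Rac1* was not among the 5 genes and is given for comparison.

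On GRCm38 with the GENCODE vM21 annotation, *Cybb* (ENSMUSG00000015340.10) lies at chrX:9435252-9487771 on the minus strand, *Cyba* (ENSMUSG00000006519.11) at chr8:122424776-122432930 on the minus strand and *Ncf1* (ENSMUSG00000015950.13) at chr5:134220053-134229625 on the minus strand. *Ncf4* (ENSMUSG00000071715.11) at chr15:78244801-78262580 on the plus strand and *Rac2* (ENSMUSG00000033220.6) at chr15:78559167-78572783 on the minus strand lie 296586 bases apart. Exons of *Ncf1* overlap those of *Gtf2ird2* on the opposite strand, and the libraries did not mark strand. *Gtf2ird2* had 9823 reads against 119482 for *Ncf1*, and reads in the shared part cannot be told apart.

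Promoters of 3 of the 5 genes were matched in RefSeq sequences on GRCm38.p6 and are shown because these genes were detected together in many cells. The 250 bases before the annotated start are printed 5′ to 3′ on the gene's strand, all on the minus strand of the genome. They cover chrX:9469325-9469574 for *Cybb* (inside the longer span that vM21 gives this gene), chr8:122432941-122433190 for *Cyba* and chr5:134229626-134229875 for *Ncf1*. Capitals mark matches on either strand to GAAANNGAA (a core of IRF sites), CCAAT (the CCAAT box), TTGCNNCAA (C/EBP) or GAGGAA (PU.1 and other ETS factors).
Cybb: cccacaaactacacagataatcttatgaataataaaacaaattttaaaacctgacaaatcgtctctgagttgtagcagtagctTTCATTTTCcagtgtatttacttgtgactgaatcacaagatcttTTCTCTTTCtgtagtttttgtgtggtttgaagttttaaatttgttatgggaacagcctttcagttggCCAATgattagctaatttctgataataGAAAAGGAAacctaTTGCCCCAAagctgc
Cyba: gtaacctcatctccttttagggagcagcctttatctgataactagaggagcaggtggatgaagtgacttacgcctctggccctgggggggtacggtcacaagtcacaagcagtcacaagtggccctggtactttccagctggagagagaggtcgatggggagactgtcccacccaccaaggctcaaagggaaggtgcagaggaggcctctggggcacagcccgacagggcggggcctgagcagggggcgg
Ncf1: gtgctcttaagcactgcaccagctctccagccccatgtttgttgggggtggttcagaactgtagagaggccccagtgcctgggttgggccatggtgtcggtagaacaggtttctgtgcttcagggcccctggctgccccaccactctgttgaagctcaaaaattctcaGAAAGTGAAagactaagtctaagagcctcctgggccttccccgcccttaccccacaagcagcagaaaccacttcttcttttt
The *Cybb* window held 3 matches to GAAANNGAA, at 167, 123 and 29 bases before the start, 1 CCAAT at 56 bases and 1 TTGCNNCAA at 15 bases, counted from the 5′ end of each match on the printed strand. *Ncf1* held 1 GAAANNGAA at 82 bases, *Cyba* held none of the 4 motifs, and no matches overlapped. Of 32851 promoter windows of this length, 7.13% held GAAANNGAA, 33.8% CCAAT, 1.74% TTGCNNCAA and 23.3% GAGGAA. These are matches of letters and describe the windows only.

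*Rac2* was the most widely detected subunit, with at least 1 read in 195 of 211 cells (92.4%, exact 95% binomial interval 88 to 95.6), and it had the highest pooled level, 2526 CPM. *Cybb* was detected in 179 cells (84.8%, 79.3 to 89.4) at 1771 CPM pooled over all cells, and *Cyba* in 169 cells (80.1%, 74.1 to 85.3) at 822 CPM. *Ncf1* was detected in 159 cells (75.4%, 69 to 81) at 543 CPM, and *Ncf4* in 137 cells (64.9%, 58.1 to 71.4) at 507 CPM. These intervals cover counting error over cells only. They treat cells as independent, although cells share captures, and do not cover the spread between captures. The reads carry no molecular identifiers.

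Detection depended on how many reads were asked for. At 10 or more reads, *Rac2* was found in 70.6% of cells, *Cyba* in 61.1%, *Cybb* in 47.9%, *Ncf1* in 44.5% and *Ncf4* in 42.2%. After each of the 164 deeper cells was thinned at random to 50000 reads, the shares with at least 1 read were 87.8%, 77.4%, 60.4%, 56.7% and 53.7% in the same order of genes. *Cybb* thus fell below *Cyba* in the share of cells, although its pooled level was higher. Among the 164 cells, *Cybb* had a median of 50.1 CPM with an upper quartile of 1814 CPM and a maximum of 12877 CPM, whereas *Cyba* had a median of 420 CPM, an upper quartile of 1066 CPM and a maximum of 6028 CPM.

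Levels of different genes were compared per length, as CPM per kilobase of exon (vM21 union of exons), over the 12 captures. *Rac2* had a median of 769 and *Cyba* of 670, followed by *Cybb* at 242, *Ncf4* at 180 and *Ncf1* at 88.1. On the log2(value + 1) scale, *Cyba* exceeded *Cybb* by 2.09 ± 1.62 (SD, n = 12 captures) and was higher in 11 of 12 captures. The other neighbours in this order differed by less than the spread over captures. *Rac2* was higher than *Cyba* in 8 of 12 captures (0.56 ± 1.72), *Cybb* was higher than *Ncf4* in 7 (-0.33 ± 1.37, so the mean had the opposite sign to the order of medians), and *Ncf4* was higher than *Ncf1* in 9 (1.44 ± 2.48). *Rac1* stood at a median of 19.5 per kilobase, below the median of each of the 5 subunits.

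The 9 cells with supporting cell markers did not form 1 kind. In the 2 of them that lacked neutrophil markers, both from capture 21c, *Cybb* and *Ncf4* had 0.361 CPM each and *Cyba*, *Ncf1* and *Rac2* had no read. In the 7 with both marker sets, *Cybb* had 2870 CPM and *Rac2* 1746 CPM, and 6 held all 5 subunits. All cells in which the 5 subunits were found together were among the 197 cells with neutrophil markers. None of the 12 cells with neither marker set held all 5, but their median depth was 450 reads.

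All 5 subunits were found together in 49.8% of the 211 cells (exact interval 42.8 to 56.7). A further 49 cells lacked exactly 1 subunit, which was *Ncf4* in 31, *Cyba* in 8, *Ncf1* in 8, *Cybb* in 2 and *Rac2* in none. The product of the 5 single shares was 30.7%. With 10 or more reads asked of each subunit, 51 cells (24.2%) held all 5, against a product of 3.88%, and in the thinned cells 50 of 164 (30.5%, 23.5 to 38.1) did, against a product of 12.5%. At each of these 3 settings the observed share was above the product of the single shares. Cells differ in total detected genes, and in the thinned cells the number of subunits found rose with the number of genes found (Spearman's rho 0.56 over 164 cells, as a description). It was 0.61 in 78 cells with *Il1b* and -0.13 in 38 cells with *Elane* or *Mpo*, classes defined with the second comparison, and the part of this in the joint share was not tested.

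Captures differed widely in this share. At P60 it was 23 of 24 cells in capture 40, 17 of 23 in capture 31 and 8 of 19 in capture 9c. It was 1 of 3 in capture 17c, 1 of 7 in 19c, 1 of 8 in 20c, 0 of 13 in 10c and 0 of 5 in 21c. A count of 0 of 13 cells allows a share of up to 24.7% and 0 of 5 up to 52.2% (upper ends of the exact intervals). Capture 10c had a median of 451 reads per cell, so its interval bounds only the share detected at that depth. At P120 the share was 28 of 37 cells in capture 28, 15 of 27 in 32, 9 of 29 in 38 and 2 of 16 in 36. The 2 P60 captures of the later runs had the highest share and the third highest, and the ranges of the ages overlapped.

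**Figure D1:**
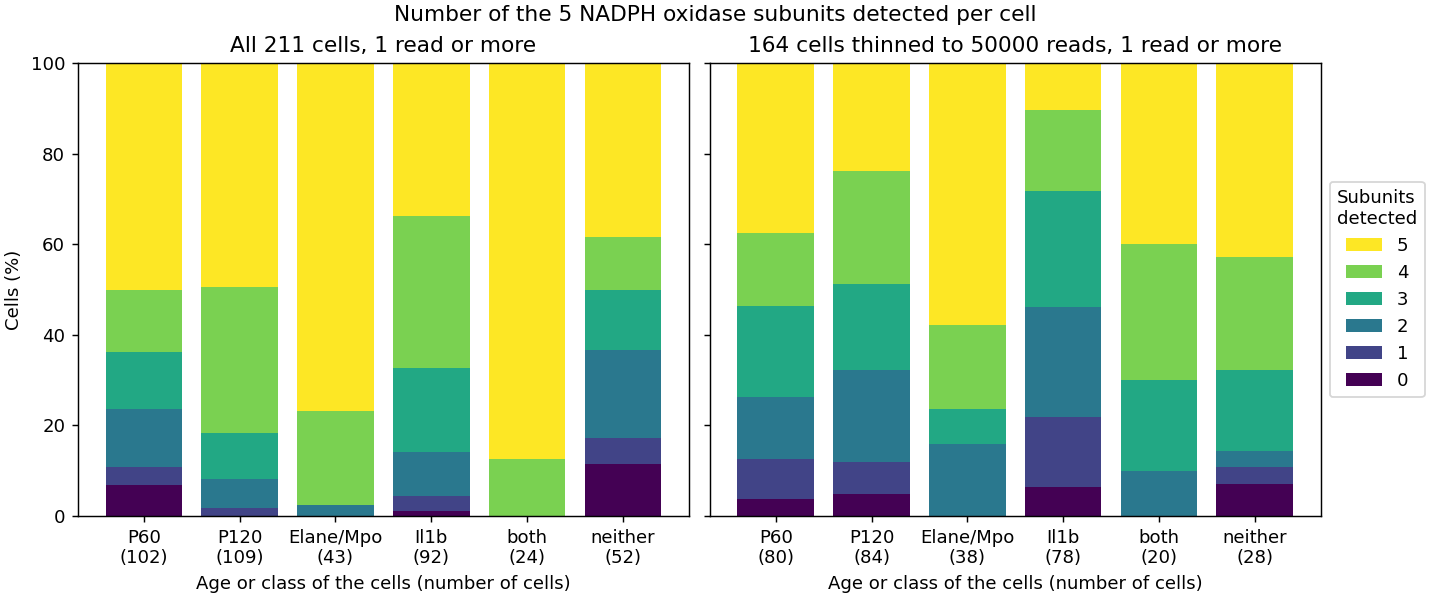
Stacked bars give the percentage of cells (vertical axis) in which 0 to 5 of the subunits had at least 1 read, by age and by class of cell, with the number of cells under each bar. All 211 cells are on the left and the 164 cells thinned to 50000 reads on the right. The uppermost part of a bar, cells with all 5 subunits, is 76.7% of Elane/Mpo-positive and 33.7% of Il1b-positive cells on the left, and 57.9% and 10.3% on the right.

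The first comparison asked whether subunit expression differed between P60 and P120. No subunit passed the test, and at both ages the spread between captures was large. Reads were summed per capture and tested across 8346 genes with edgeR's quasi-likelihood test, P120 against P60. Of all genes tested, 0.12% were called at an adjusted p under 0.05, 5 higher at P120 and 5 higher at P60. Of the 5 subunits 0 were called. At an unadjusted p under 0.05 there was 1 of the 5, beside 5.31% of all genes, and DESeq2 called 0 of the 5, beside 0.0839% of all genes. The median log2 fold change was 0.33 over the 5 subunits and 0.26 over all genes tested.

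For the catalytic subunit *Cybb*, P60 captures ran from 1.07 CPM in 21c through a median of 1343 CPM to 3144 CPM in capture 40. The P120 captures had 1572 CPM (28), 1381 CPM (32), 1425 CPM (38) and 37.1 CPM (36). All but capture 36 lay within the upper part of the P60 range, and *Cybb* in capture 36 was the lowest of the 4 by far. The log2 fold change was -0.32 ± 1.36 (SE, edgeR adjusted p = 1.0), and it became 0.089 without capture 36. *Cyba*, its membrane partner, ran from 6.64 to 1986 CPM at P60 with a median of 752 CPM, and had 563, 674, 340 and 1074 CPM in captures 28, 32, 36 and 38. Its log2 fold change was -0.017 ± 1.38 (edgeR adjusted p = 1.0), and the ages overlapped.

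*Ncf1*, the organizer, had the largest difference of the 5. P60 captures had from 0 CPM in 10c to 580 CPM in 31 with a median of 115 CPM, and P120 captures had 289 CPM (28), 1050 CPM (32), 2207 CPM (36) and 357 CPM (38). Captures 32 and 36 were above every P60 capture and captures 28 and 38 were within the P60 range. In capture 32, however, 1 Il1b-positive cell held 66.8% of the *Ncf1* reads (19.6% of those in all cells), and without it the capture had 375 CPM, inside the P60 range. The log2 fold change was 3.02 ± 1.34 (unadjusted p = 0.025, edgeR adjusted p = 0.748) and did not pass. Capture 36 carried much of it, since without it the value was 1.23, and without the single cell of capture 32 it was 2.90. In these sums, the capture with the lowest *Cybb* at P120, capture 36, had the highest *Ncf1* of all 12. Its median cell had 6.95 CPM of *Ncf1*, however, and 31.25% of its 16 cells reached 10 reads.

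*Ncf4* ran from 0.214 CPM in 21c to 1069 CPM in 17c at P60 with a median of 397 CPM, and had 879, 269, 220 and 402 CPM in captures 28, 32, 36 and 38. *Rac2* varied least over captures (SD of 1.56 on the log2 scale per kilobase over the 12 captures, against 2.44 to 2.88 for the other 4 genes), with 2241, 2212, 3078 and 1549 CPM in the same P120 captures. At P60 it ran from 67.1 CPM in 10c through a median of 2722 CPM to 3313 CPM in 20c, and capture 21c, where *Cybb*, *Cyba*, *Ncf1* and *Ncf4* were each below 7 CPM, still had 803 CPM. The log2 fold changes were 0.33 ± 1.44 for *Ncf4* and 0.43 ± 1.27 for *Rac2* (edgeR adjusted p = 1.0 for each), and both changed sign with DESeq2 (-0.14 and -0.048).

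**Figure D2:**
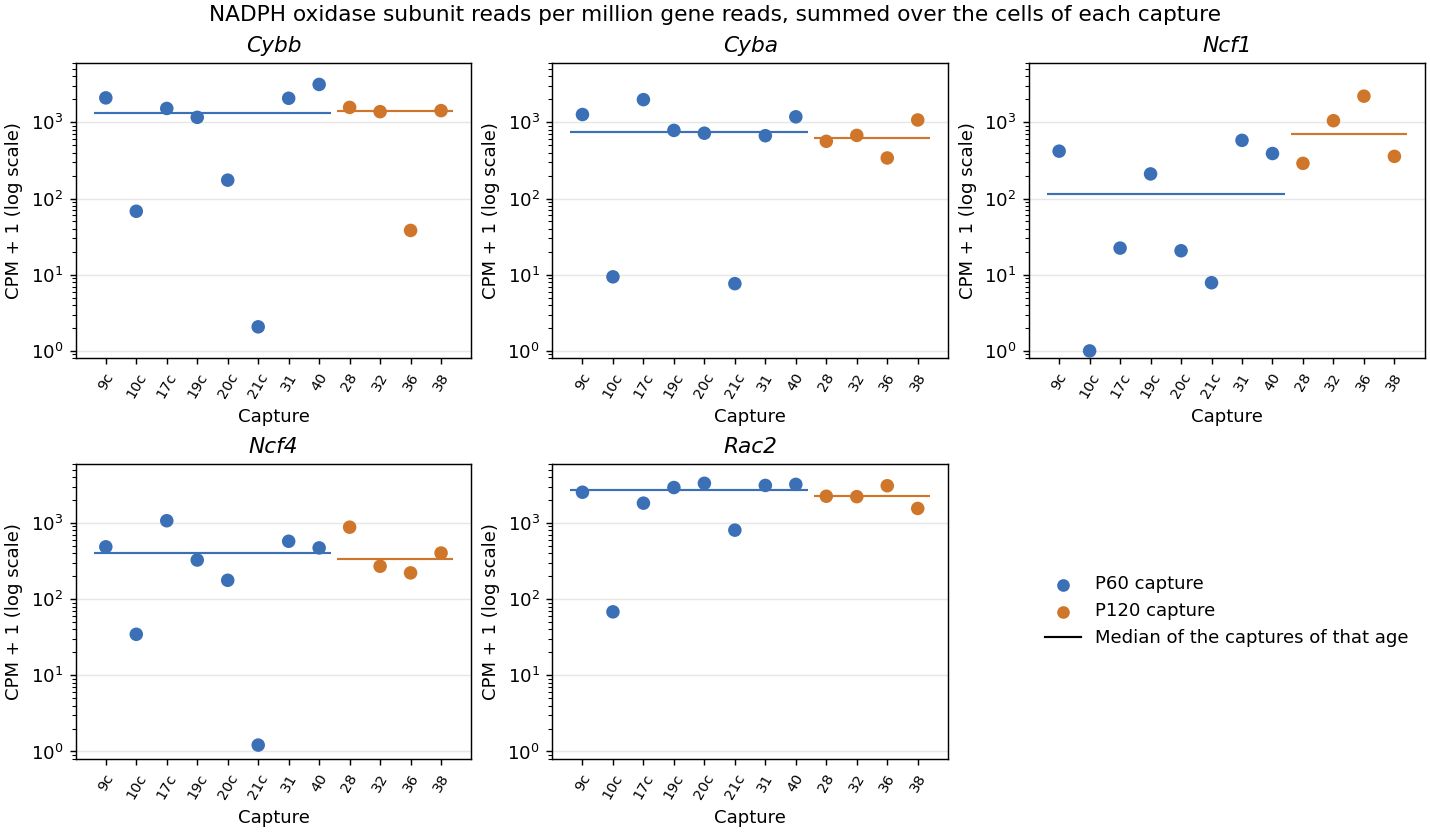
Each point is 1 capture, with reads summed over its cells and given as CPM + 1 on a log scale, P60 in blue and P120 in orange, and lines give the median of the captures of each age. The ages overlap for all 5 genes, capture 21c is lowest for *Cybb*, *Cyba* and *Ncf4*, and capture 36 has the lowest *Cybb* of P120 and the highest *Ncf1* of all.

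The share of cells with all 5 subunits had a mean of 34% ± 35.1 over the 8 P60 captures and of 43.7% ± 27.7 over the 4 P120 captures (SD). This gap of 9.70 percentage points was within the spread (exact two-sided permutation test over 495 arrangements, p = 0.642, and 0.642 after adjustment over the 2 exact tests made). After thinning the means were 20.0% and 20.3%. Within the later runs alone the order turned, with 84.9% ± 15.5 in the 2 P60 captures against 43.7% in the 4 P120 captures (exact p = 0.267). Age and run cannot be told apart for the earlier captures, which were all P60.

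The second comparison set cells with early granule genes against cells with *Il1b*. *Elane* (neutrophil elastase) and *Mpo* (myeloperoxidase) are made in granulocyte precursors, and *Il1b* encodes a cytokine made by mature and stimulated neutrophils. Cells with 10 or more reads of *Elane* or *Mpo* and fewer than 10 of *Il1b* were called Elane/Mpo-positive (43 cells), and cells with 10 or more of *Il1b* and fewer than 10 of the others Il1b-positive (92 cells). A further 24 cells passed both thresholds and 52 neither. Near the thresholds, 20 cells had 5 to 9 *Elane* reads and 21 had 10 to 19, 22 and 12 cells did for *Mpo*, and 15 and 10 cells did for *Il1b*. Elane/Mpo-positive cells were deeper (median 1700682 reads against 653435) and, thinned to 50000 reads, showed more genes (median 2410 against 742).

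Within the 4 captures that held at least 3 cells of each class (9c at P60, and 28, 32 and 38 at P120), *Ncf4* was higher in Elane/Mpo-positive cells in every capture, with no overlap between the classes. The share of all genes tested that separated in this way was not counted. The median over all genes also pointed to these cells (log2 fold change 1.28). *Cyba* was lower in Elane/Mpo-positive cells in all 4 captures, but its ranges overlapped. None of the 5 subunits passed the test. Reads were summed per capture and class and tested across 5775 genes with edgeR, with the capture as a block. Of all genes tested, 1.87% were called, 18 higher in Elane/Mpo-positive and 90 higher in Il1b-positive cells (66 and 48 with library size alone in place of TMM scaling). Of the 5 subunits 0 were called. At an unadjusted p under 0.05 there were 0 of the 5, beside 15% of all genes, and DESeq2 called 0 of the 5, beside 32% of all genes. The median log2 fold change of all genes, Elane/Mpo-positive over Il1b-positive, was 1.28 with TMM scaling and 2.21 with library size alone, so changes are also given relative to 1.28.

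*Ncf4* had 455 CPM in Elane/Mpo-positive against 213 CPM in Il1b-positive cells of capture 9c, 963 against 129 CPM in capture 28, 536 against 41.8 CPM in capture 32 and 774 against 103.96 CPM in capture 38. Means were 682 ± 231 CPM and 122 ± 70.9 CPM (SD, n = 4 captures). The fitted log2 fold change was 1.72 ± 1.61 (SE, edgeR adjusted p = 0.632), or 0.45 relative to the median of all genes. In capture 31, which had only 2 Elane/Mpo-positive cells and stayed out of the test, the order was the other way, with 35.1 against 688 CPM (205 CPM without 1 Il1b-positive cell that held 77.9% of those reads).

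*Cybb* had 674 against 2442 CPM in capture 9c, 1204 against 3680 CPM in 28, 1579 against 2025 CPM in 32 and 2126 against 689 CPM in 38, each time with the Elane/Mpo-positive cells first. It was therefore lower in Elane/Mpo-positive cells in 3 of 4 captures, with a log2 fold change of -1.50 ± 0.99 (edgeR adjusted p = 0.474; -2.78 relative to the median). *Cyba* had 908 against 949 CPM, 346 against 861 CPM, 433 against 1400 CPM (827 CPM without 1 Il1b-positive cell) and 667 against 1336 CPM in captures 9c, 28, 32 and 38. Its log2 fold change was -1.96 ± 1.17 (edgeR adjusted p = 0.418; -3.23 relative to the median).

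*Ncf1* was higher in Elane/Mpo-positive cells in 2 captures (625.2 against 90.7 CPM in 9c, 139 against 109.2 CPM in 28) and lower in 2 (353 against 2401 CPM in 32, 127 against 246 CPM in 38). In capture 32, 90.7% of the Il1b-positive reads came from 1 cell, and without it the order turned, at 353 against 285 CPM. The log2 fold change was -1.24 ± 1.55 (edgeR adjusted p = 0.737; -2.52 relative to the median) and -0.40 without that cell. *Rac2* had 3458 against 1610 CPM in 9c, 1643 against 1502 CPM in 28, 2048 against 3473 CPM in 32 and 2721 against 633 CPM in 38, and was thus higher in Elane/Mpo-positive cells in 3 of 4. Its fitted log2 fold change was -0.27 ± 0.94 (edgeR adjusted p = 0.933) with TMM and 0.71 with library size alone, and relative to the median of all genes it was -1.55 and -1.50.

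**Figure D3:**
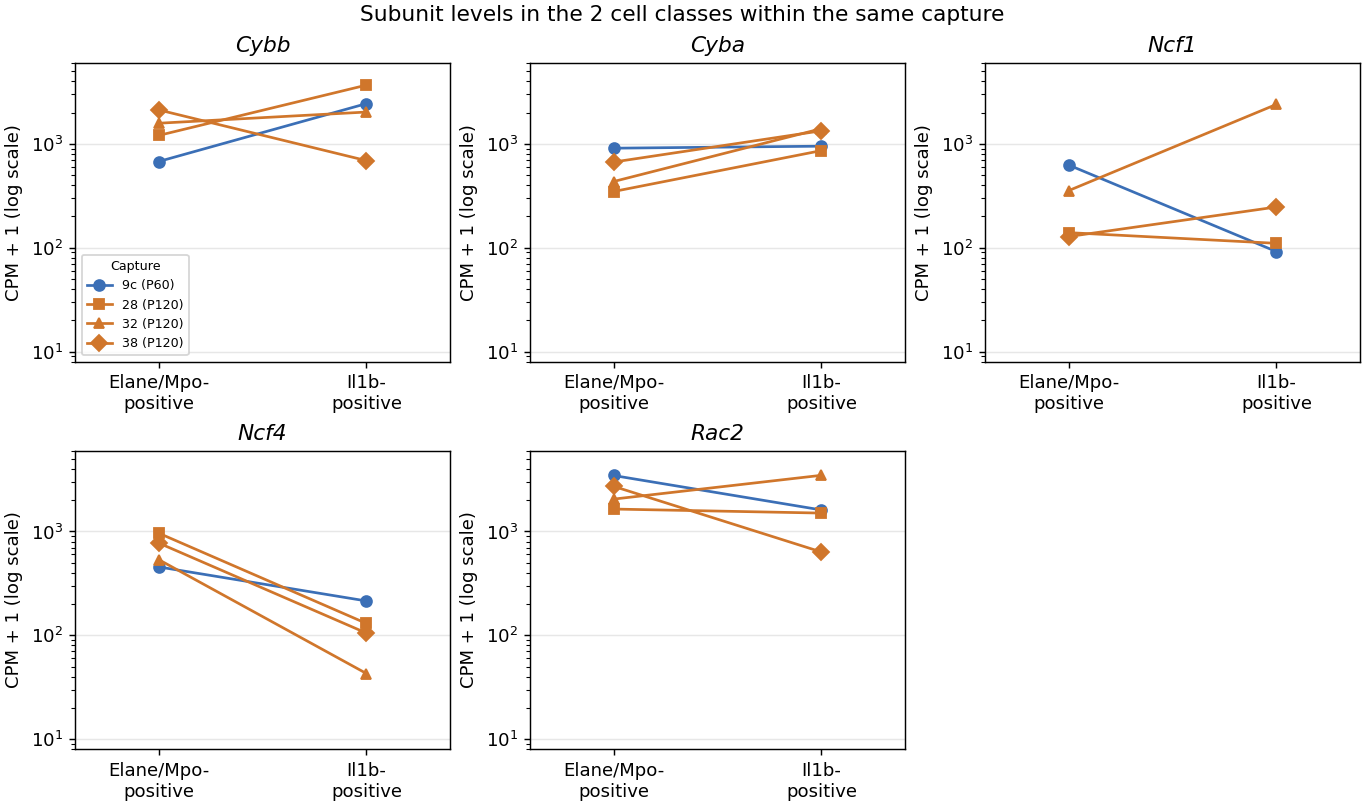
Each line joins the Elane/Mpo-positive and Il1b-positive cells of 1 capture (P60 capture 9c in blue, the P120 captures in orange), with reads summed per class and given as CPM + 1 on a log scale. *Ncf4* falls from left to right in all 4 captures, whereas lines for *Cybb*, *Ncf1* and *Rac2* cross.

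Markers of cell types were also summed by class, and of the lists given here only the neutrophil genes had ranges that did not overlap. A list of granulocyte precursor genes separated the classes too, but it holds *Elane* and *Mpo*, by which the classes were defined. The 6 basophil and mast cell genes summed to between 11 and 58908 CPM in Elane/Mpo-positive cells of the 4 captures and between 3.90 and 22.7 CPM in Il1b-positive cells. The 12 neutrophil genes summed to between 58034 and 118046 CPM and between 126888 and 234328 CPM. All 6 basophil and mast cell genes had reads. The ranges, with Elane/Mpo-positive cells first, were 136 to 359 against 71.8 to 150 CPM for 15 supporting cell genes, 1.57 to 3663 against 403 to 1526 CPM for 12 monocyte and macrophage genes, 0.835 to 1745 against 0.0929 to 319 CPM for 6 B cell genes and 15.1 to 627 against 0.279 to 375 CPM for 9 endothelial genes, of which *Esam* had no read. The 8 hair cell genes summed to at most 33.7 CPM. The part of these cells in the subunit levels was tested only for the basophil and mast cell genes. Without the 18 cells with at least 3 of these genes at 10 or more reads, capture 32 dropped out and *Ncf4* had a log2 fold change of 1.59 (edgeR adjusted p = 0.819). Sums over cells do not separate fewer expressing cells from lower levels per cell, so shares of cells are given next.

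Shares of cells were compared at equal depth, but not at equal numbers of genes found. Thinned cells had a median of 2410 genes when Elane/Mpo-positive and 742 when Il1b-positive. After thinning, *Ncf4* was found in 31 of 38 Elane/Mpo-positive cells (81.6%, exact interval 65.7 to 92.3) and 26 of 78 Il1b-positive cells (33.3%, 23.1 to 44.9). *Cybb* was found in 31 of 38 (81.6%, 65.7 to 92.3) and 32 of 78 (41%, 30 to 52.7), although its summed level was higher in Il1b-positive cells in 3 of 4 captures. Its median over cells of at least 50000 reads was 1135 CPM in Elane/Mpo-positive and 4.68 CPM in Il1b-positive cells. *Rac2* was found in 38 of 38 and 60 of 78, *Cyba* in 34 of 38 and 52 of 78, and *Ncf1* in 25 of 38 and 36 of 78. Cells were pooled over captures here, so these shares were not tested. No share over all genes is given beside them, so they do not set the subunits apart from other genes.

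All 5 subunits were found in 33 of 43 Elane/Mpo-positive cells (76.7%, 61.4 to 88.2) and 31 of 92 Il1b-positive cells (33.7%, 24.2 to 44.3). After thinning these became 22 of 38 (57.9%, 40.8 to 73.7) and 8 of 78 (10.3%, 4.53 to 19.2). The classes differed in the number of genes found at this depth, as given above, and the part of this was not tested. Over the 4 captures the means were 63.8% ± 13.5 and 39.1% ± 19.6 (SD), a difference of 24.7 ± 19.2 percentage points that was positive in 4 of 4 captures (exact two-sided sign-flip permutation test, p = 0.125, which is the smallest value 4 captures can give; 0.25 after adjustment over the 2 exact tests). In the 3 captures with enough thinned cells the means were 48.9% and 18.1%. The difference was 13.7 points in the 2 captures with at least 5 cells of each class (exact p = 0.5, the smallest 2 captures can give) and 37.0 points without the basophil and mast cell marker cells given above (exact p = 0.25). With every capture that had at least 1 cell of each class, a setting chosen after seeing the data, it was 31.7 points (exact p = 0.047).

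The 24 cells positive for both sets held all 5 subunits in 21 cases (87.5%), and in 8 of 20 after thinning. Of the 52 cells positive for neither, 20 (38.5%) held all 5, and 12 of 28 (42.9%) after thinning. Their depth was the lowest of the 4 sets, with a median of 122356 reads, and 13 of them were the shallow cells of capture 10c. Their pooled *Cybb* was 3059 CPM, to which 10 cells of capture 40 gave the most reads. Within capture 40, the neither cells had 3941 CPM against 2017 CPM in 10 Elane/Mpo-positive cells, and 1 cell held 48.4% of their reads (2389 CPM without it). In capture 9c they had 3256 CPM, in capture 28 1428 CPM and in capture 38 2881 CPM.

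Age and class could be crossed in few captures. In the thinned cells, all 5 subunits were found in 11 of 15 Elane/Mpo-positive cells and 5 of 35 Il1b-positive cells at P60, and in 11 of 23 and 3 of 43 at P120. With cells pooled over captures, the Elane/Mpo-positive cells had the larger share at both ages, and this was not tested. Captures gave unequal parts to the classes. Before thinning, capture 40 held 10 Elane/Mpo-positive cells and 1 Il1b-positive cell, and capture 36 held 15 Il1b-positive cells and no Elane/Mpo-positive cell. Capture and class therefore cannot be told apart in these pooled shares. Only 1 P60 capture (9c) held both classes in sufficient number, so a change of the class difference with age had no replicate at P60 and could not be judged.

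The wider oxidase pathway was taken as a list of 33 further genes. Of the 22 tested between ages 0 were called by edgeR in either direction, with 0 at an unadjusted p under 0.05 (5.31% of all genes), and their median log2 fold change was 0.25 beside 0.26 for all genes. Of the 21 tested between classes 0 were called by edgeR, with 3 at an unadjusted p under 0.05, a share close to the 15% of all genes. The median was -1.57 beside 1.28 for all genes. *Rac1* had a log2 fold change of 0.42 between ages (adjusted p = 1.0) and -0.68 between classes (adjusted p = 0.957).

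None of the 9 genes for other NOX and DUOX enzymes and their partners had enough reads to test. *Nox3*, the oxidase known from the vestibular inner ear, had 2 reads in 1 of 211 cells (0.474%, exact interval 0.012 to 2.61). *Nox4* had 300 reads in 5 cells, and *Nox1*, *Noxo1*, *Duox2* and *Duoxa2* had 0 reads in all cells. The catalytic subunit counted in these cells was thus almost wholly *Cybb*, with 389883 reads.

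Co-expression was measured in the 164 cells thinned to 50000 reads, where depth is equal but the number of genes found is not. All 10 pairs of subunits had a positive Spearman's rho, from 0.25 for *Ncf1* with *Rac2* to 0.50 for *Cybb* with *Ncf4*, with a median of 0.29. Within the 7 captures that had at least 10 such cells, *Cybb* with *Ncf4* was positive in 7 of 7 (median 0.45, range 0.14 to 0.79), as were *Cybb* with *Ncf1*, *Cyba* with *Ncf1* and *Ncf4* with *Rac2*. The membrane partners *Cybb* and *Cyba* had a rho of 0.41 over all cells and a median of 0.30 within captures, positive in 6 of 7. These are descriptions without a test, over cells that share captures and runs. In these cells the number of subunits found rose with the number of genes found (rho 0.56, given above). Pairs of other genes were not counted for comparison.

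The strength of these relations was also described by class and by age, with cells pooled over captures. The median over the 10 pairs was 0.32 in 38 Elane/Mpo-positive cells, 0.18 in 78 Il1b-positive cells and 0.47 in 28 cells positive for neither, and it was 0.37 in 80 cells at P60 and 0.20 in 84 cells at P120. *Cybb* with *Ncf4* kept 0.46 in Elane/Mpo-positive and 0.41 in Il1b-positive cells, while *Cyba* with *Rac2* had 0.59 and 0.22. These differences were not tested.

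**Figure D4:**
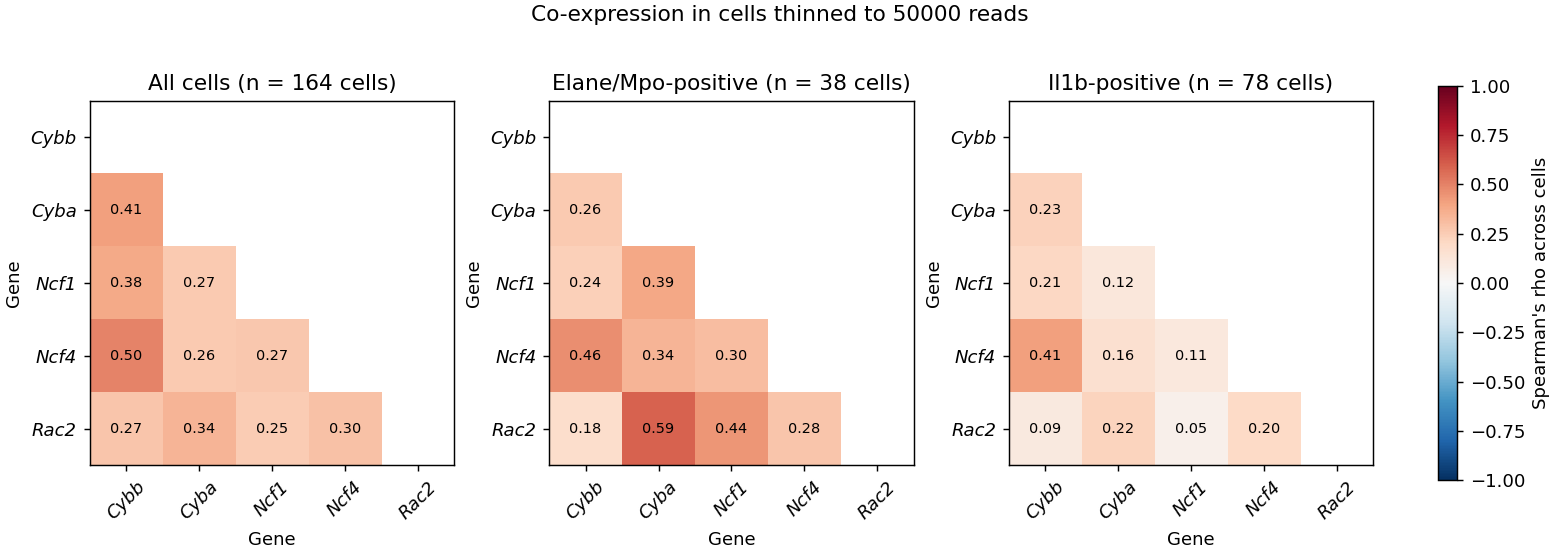
Each square gives Spearman's rho between a pair of genes across cells thinned to 50000 reads, from blue (-1) through white (0) to red (1), for all 164 cells, 38 Elane/Mpo-positive cells and 78 Il1b-positive cells. All pairs of the 5 subunits are positive in each panel.

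Among 1547 genes with a read in at least 25% of the thinned cells, those whose level was most like the summed reads of the 5 subunits were *Ngp* (Spearman's rho 0.55 over 164 cells), *Wfdc21* (0.52), *Arhgdib* (0.51), *Lcn2* (0.50) and *Cd177* (0.49). *Ngp* and *Lcn2* encode proteins of neutrophil secondary granules, *Cd177* a neutrophil surface protein and *Arhgdib* an inhibitor of small GTPases. The lowest were *Ptgs2* (-0.28), which encodes an inducible prostaglandin synthase, and the transcription factor genes *Atf3* (-0.27) and *Jund* (-0.26).

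Gene by gene, *Cybb* was most like *Ngp*, with a rho of 0.85, above that of *Cybb* with any other subunit. *Ncf4* was most like *Fcnb* (0.55), a ficolin of myeloid cells. *Cyba* and *Rac2* were each most like *Arhgdib* (0.46 and 0.47), and *Ncf1* was most like *Tecr* (0.44), an enzyme of fatty acid elongation. These correlations describe the same cells and carry no test.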

How the data were processed

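Single cells from adult Lfng-EGFP cochleae were sorted, captured on the Fluidigm C1 and sequenced as full-length cDNA without strand. The authors aligned reads with STAR to GRCm38, counted them per gene and removed endothelial cells and outliers before deposit. The deposited values are raw read counts for 48709 genes and 92 spike-ins in 211 cells, with each cell's age, capture and run. The deposited GFP intensity was not used. Spike-ins stayed out of totals, and no doublet caller was run.

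Gene reads were added up within captures, or within each class of a capture, and tested with edgeR 4.0.16 (TMM, filterByExpr, quasi-likelihood test, Benjamini-Hochberg at 0.05) in R 4.3.3, with DESeq2 1.42.0 as another tool. The fits were tested on simulated data. At the larger spread simulated, which was below the spread fitted in either comparison, that test recovered almost none of the changed genes. The absence of a call therefore does not show that groups were alike. Shares were compared with exact permutation tests (scipy 1.17.1). CPM are counts scaled to 1000000 gene reads. Cells were thinned to 50000 reads where depth mattered.

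The 5 genes, the classes, the lists and the thresholds were chosen with earlier results of these data known. The text names the 5 genes, pathway genes that passed a test (there were none), *Rac1* and *Nox3*, and the genes most like the 5 by Spearman's rho. Genes named beyond this rule were chosen after their values were seen. A gene of the pathway is not reported here.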

Additional observations from a re-analysis of the deposited data

Results flagged for a closer look

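Each age and each class was screened for a capture that stood far from the others in its group, for the log2(CPM + 1) of each subunit and, by age, for the share of cells with all 5 (22 checks, of which chance alone marks about 1 in 20). *Rac2* in capture 10c was the lowest of the 8 P60 captures, at 6.09 against 9.65 for the next. Capture 10c was also the shallowest, with a median of 451 reads per cell. *Cybb* in capture 36 was the lowest of the 4 P120 captures, at 5.25 against 10.4 for the next. Its summed *Ncf1* was the highest of all captures, with a median of 6.95 CPM over its cells. Of its 16 cells, 15 were Il1b-positive and none Elane/Mpo-positive.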

How the results depend on the processing

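No subunit was called between ages or classes in any of the 170 refits of their log2 fold changes (100 by age, 70 by class), whose lowest adjusted p-values were 0.319 and 0.207. The sign turned in 17 and 7 of them. By age, P120 over P60, it turned with DESeq2 for *Ncf4* (-0.14) and *Rac2* (-0.048) and in the later runs alone for the same genes (-0.24 and -0.077). It also turned without captures 10c and 21c for *Ncf4* (-0.017) and in Il1b-positive cells alone for *Cybb* (1.25), *Cyba* (1.06) and *Ncf4* (-1.0). Leaving out 1 capture at a time gave -0.65 to 0.089 for *Cybb*, -0.36 to 0.20 for *Cyba*, 1.23 to 3.57 for *Ncf1*, 0.13 to 0.58 for *Ncf4* and -0.42 to 0.65 for *Rac2*. By class, Elane/Mpo-positive over Il1b-positive, *Rac2* turned with library size alone (0.71, where the median of all genes rose from 1.28 to 2.21), and with every capture holding at least 1 cell of each class *Cybb* (0.027), *Ncf1* (0.26) and *Rac2* (0.99) turned. *Rac2* turned also without the basophil and mast cell marker cells (0.25). Leaving out 1 capture gave -2.10 to -1.01 for *Cybb*, -2.47 to -1.74 for *Cyba*, -2.26 to -0.35 for *Ncf1*, 1.35 to 2.03 for *Ncf4* and -0.68 to 0.18 for *Rac2*. The cause was not tested.

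The share of cells with all 5 subunits, P120 minus P60, turned at 10 or more reads (-8.63 percentage points), in the later runs (-41.2) and without captures 10c and 21c (-1.64), and ran from -0.97 to 20.1 with 1 capture left out. The class difference stayed positive in every setting that gave a value, from 16.3 to 31.8 with 1 capture left out. It was 13.7 with at least 5 cells of each class, 37.0 without the marker cells and 31.7 with at least 1 cell of each class.

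Counts of all genes called moved more. Higher at P120 and higher at P60 were 5 and 5, against 3 and 4 with DESeq2, 1 and 4 with library size alone, 17 and 5 with no filter, 0 and 1 after thinning, 2 and 0 in the later runs, 1 and 0 without captures 10c and 21c, 0 and 0 in Il1b-positive cells, and 1 to 10 and 0 to 8 with 1 capture left out. Higher in Elane/Mpo-positive and in Il1b-positive cells were 18 and 90, against 1283 and 567 with DESeq2, 66 and 48 with library size alone, 8 and 52 with no filter, 9 and 44 after thinning, 8 and 40 in cells of at least 50000 reads, 1 and 5 with at least 5 cells of each class, 314 and 82 with at least 1, 13 and 29 with no replicate block, 8 and 44 without the marker cells, and 6 to 15 and 36 to 70 with 1 capture left out.

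The settings without captures 10c and 21c, in Il1b-positive cells alone, with at least 1 cell of each class and without marker cells or without the cell with the most *Ncf1* reads were chosen after seeing the data. A class threshold of 1 read could not be run, since no capture then held 3 cells of each class. Shallow cells limit detection, as 47 of 211 cells had fewer than 50000 reads. No paired analysis by replicate number was possible because the numbers only name cells; the capture was the block between classes.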
